A study of Schizosaccharomyces pombe with 8 samples.

Results

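Fission yeast (Schizosaccharomyces pombe) takes up inorganic phosphate and stores part of it as polyphosphate, and the genes of that supply line were compared between a strain deficient in zfs1 and a wild-type strain. The group was defined as every probe set whose gene symbol in the array's probe table, or whose current symbol by gene identifier, was vtc1, vtc2, vtc4, pho84, pho4 or pho7. Of these 6 genes, 2 had a probe set with such a name, vtc4 and pho4, out of 2899 named genes in all, and both were tested. The probe sets of vtc1, vtc2, pho84 and pho7 were not named in the probe table used here, so these 4 genes were not analysed. The results therefore cover 1 gene of polyphosphate synthesis and 1 secreted phosphatase, and no phosphate transporter.

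The zfs1 gene encodes an mRNA-binding protein that destabilises transcripts. Total RNA came from 4 zfs1-deficient and 4 wild-type cultures, grown in Edinburgh minimal medium at 30 °C, with uracil, lysine, leucine, histidine and adenine added. They were harvested at an absorbance (A600) of 1, and each culture was hybridised to 1 array. Thiamine is not among the supplements that the labels list for this medium. The titles call the deficient strain deltaZFS, the usual notation for a deletion, and beyond that the labels give no allele, mating type or marker for either strain.

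In fungi, the vacuolar transporter chaperone (VTC) complex in the vacuole membrane makes polyphosphate from ATP and moves the chain into the vacuole, using the proton gradient set up by the vacuolar proton ATPase. Vtc4 is the catalytic subunit. Phosphate itself enters through transporters such as Pho84, and the zinc-finger activator Pho7 drives pho84 and the acid phosphatase gene pho1 when phosphate is short. The acid phosphatase Pho4 is set apart from that circuit, since its gene is repressed by thiamine and is transcribed together with genes of thiamine synthesis and uptake.

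All array values are log2 signals, and every difference is the zfs1-deficient mean minus the wild-type mean. Precision is limited by there being 8 arrays. Array medians lay between 9.61 and 9.64. The deficiency was visible in the data: zfs1 (SPBC1718.07C) was above the brightest reporter control on 0 of 4 zfs1-deficient arrays and on 4 of 4 wild-type arrays, a fall of at least 31.8-fold (limma, adjusted p = 5.23e-07). Between the strains, 177 of 4969 probe sets were called higher and 110 lower (limma with Benjamini-Hochberg adjustment over all of them, adjusted p under 0.05). Cultures are numbered 1 to 4 in each strain, and a second fit held the replicate number as a block (the blocked fit). It was used because deviations from the strain means correlated positively between same-numbered arrays. No label says that a number marks cultures handled together, so the pairing was judged from these same values. It was not exclusive: zfs1-deficient culture 3 correlated more with wild-type culture 1 (0.41) than with wild-type culture 3 (0.26). Calls made only in the blocked fit depend on this choice. In bulk RNA, fewer cells of a kind and less RNA per cell cannot be told apart.

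vtc4, the polyphosphate polymerase gene, was 1.41-fold higher without zfs1. Its probe set (SPCC1322.14C) read 11.40, 11.27, 11.44 and 11.36 in zfs1-deficient cultures 1 to 4, against 10.90, 10.76, 10.90 and 10.91 in wild-type cultures 1 to 4. Every zfs1-deficient culture lay above every wild-type culture, and in both strains culture 2 was the lowest. The means were 11.37 ± 0.07 in zfs1-deficient and 10.87 ± 0.07 in wild-type cultures (SD, n = 4 each), a difference of 0.50 ± 0.07 (SE; limma, adjusted p = 0.00511). The 95% confidence interval of the fold on the linear scale was 1.27 to 1.58. The difference was several times the spread within either strain.

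The rise of vtc4 was nearly equal in each numbered pair of cultures. It came to 0.50 in pair 1, 0.51 in pair 2, 0.54 in pair 3 and 0.45 in pair 4, and in the blocked fit its SE was 0.05. Of all tested probe sets, 3.56% were called higher, and 7.81% of those with a value on every array had all zfs1-deficient arrays above all wild-type arrays. All 4 numbered pairs were higher for 20.8% of those same probe sets. vtc4 was among each of these. Its size was moderate by the standard of these strains: 321 of 4969 probe sets had a larger positive difference, but only 40 had a smaller p. The call held in each of 8 fits with 1 array left out, where the adjusted p lay between 0.00798 and 0.0315 and the difference between 0.46 and 0.53.

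**Figure D1:**
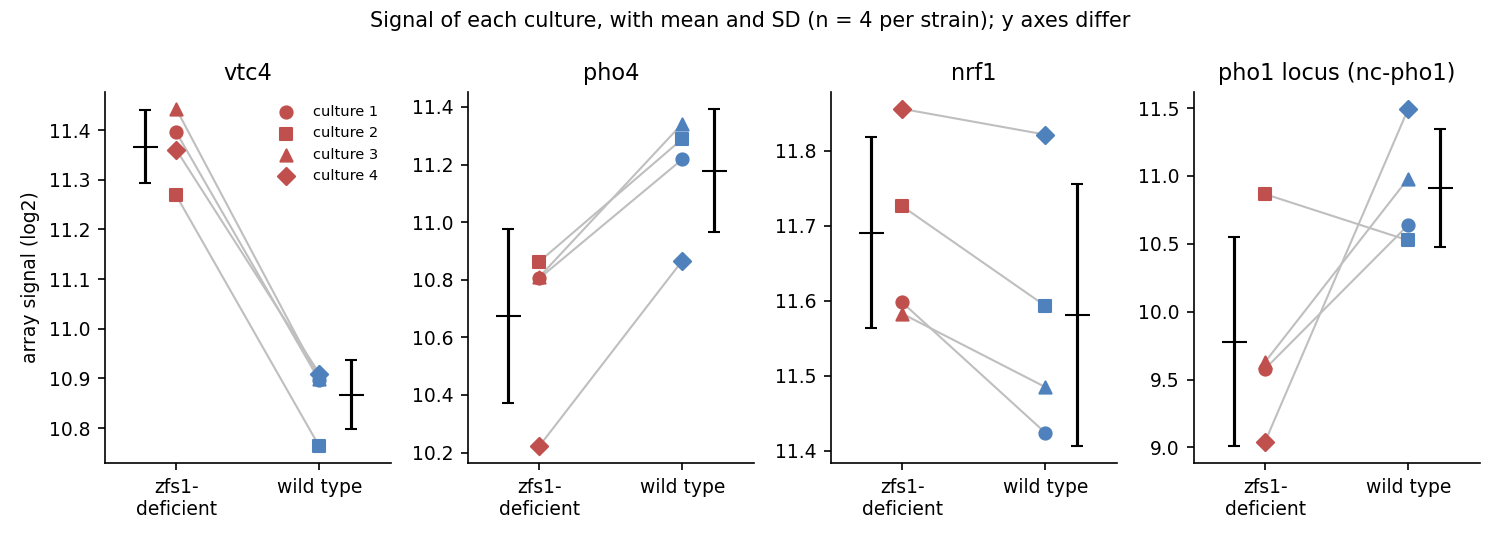
Log2 array signal (y axis, a separate range in each panel) of vtc4, pho4, nrf1 and the pho1 locus probe set in the 4 zfs1-deficient cultures (left, red) and the 4 wild-type cultures (right, blue). Grey lines join cultures of the same number, and black bars are the mean and SD (n = 4). For vtc4 the lines run nearly parallel between 11.27 to 11.44 and 10.76 to 10.91, and for pho4 the lowest point in each strain is culture 4.

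pho4, the thiamine-repressible acid phosphatase gene, was lower without zfs1 in every pair, by a size close to the rise of vtc4. Its probe set (SPBC428.03C) read 10.80, 10.86, 10.81 and 10.22 in zfs1-deficient cultures 1 to 4, against 11.22, 11.29, 11.34 and 10.87 in wild-type cultures 1 to 4. The strains did not overlap, but the highest zfs1-deficient value, 10.862, lay just under the lowest wild-type value, 10.866, that of culture 4. The means were 10.67 ± 0.30 in zfs1-deficient and 11.18 ± 0.21 in wild-type cultures (SD, n = 4 each), a difference of -0.50 ± 0.16 (SE), so that the deficient strain held 70.5% of the wild-type signal (fold interval at 95% of 0.55 to 0.90).

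Without regard to the numbers, pho4 missed the threshold (limma, adjusted p = 0.107), and in the blocked fit it passed (adjusted p = 0.00117, SE 0.06). Culture 4 was the low one in both strains, 0.60 under the mean of the other cultures in the zfs1-deficient strain and 0.42 under it in wild type. The difference within pairs was -0.41, -0.43, -0.53 and -0.64 for pairs 1 to 4, and 25.1% of probe sets with a value on every array were lower in all 4. Without both replicate 4 arrays the difference was -0.46 ± 0.06 (SE, n = 3 per strain) and passed unblocked as well (limma, adjusted p = 0.00385), in a fit that called 5.58% of probe sets lower. Of all tested probe sets, 2.21% were called lower without the block and 12.8% with it, and 7.71% of those with a value on every array had all zfs1-deficient arrays below all wild-type arrays.

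vtc4 and pho4 differed between the strains in opposite directions. Within each array, vtc4 minus pho4 was 0.59, 0.41, 0.63 and 1.14 in zfs1-deficient cultures 1 to 4, against -0.32, -0.53, -0.44 and 0.04 in wild-type cultures 1 to 4, with no overlap. The difference between the strains was 1.00, the sum of both sizes (1 pair of genes compared). Since neither gene's groups overlap and they lie in opposite directions, an exact permutation test of this quantity over the 8 arrays could only give its smallest 2-sided p, 0.0286, and adds nothing to the separate differences. In the replicate 4 cultures the vtc4 signal differed from the mean of the other cultures by -0.01 in the zfs1-deficient strain and by 0.06 in wild type.

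**Figure D2:**
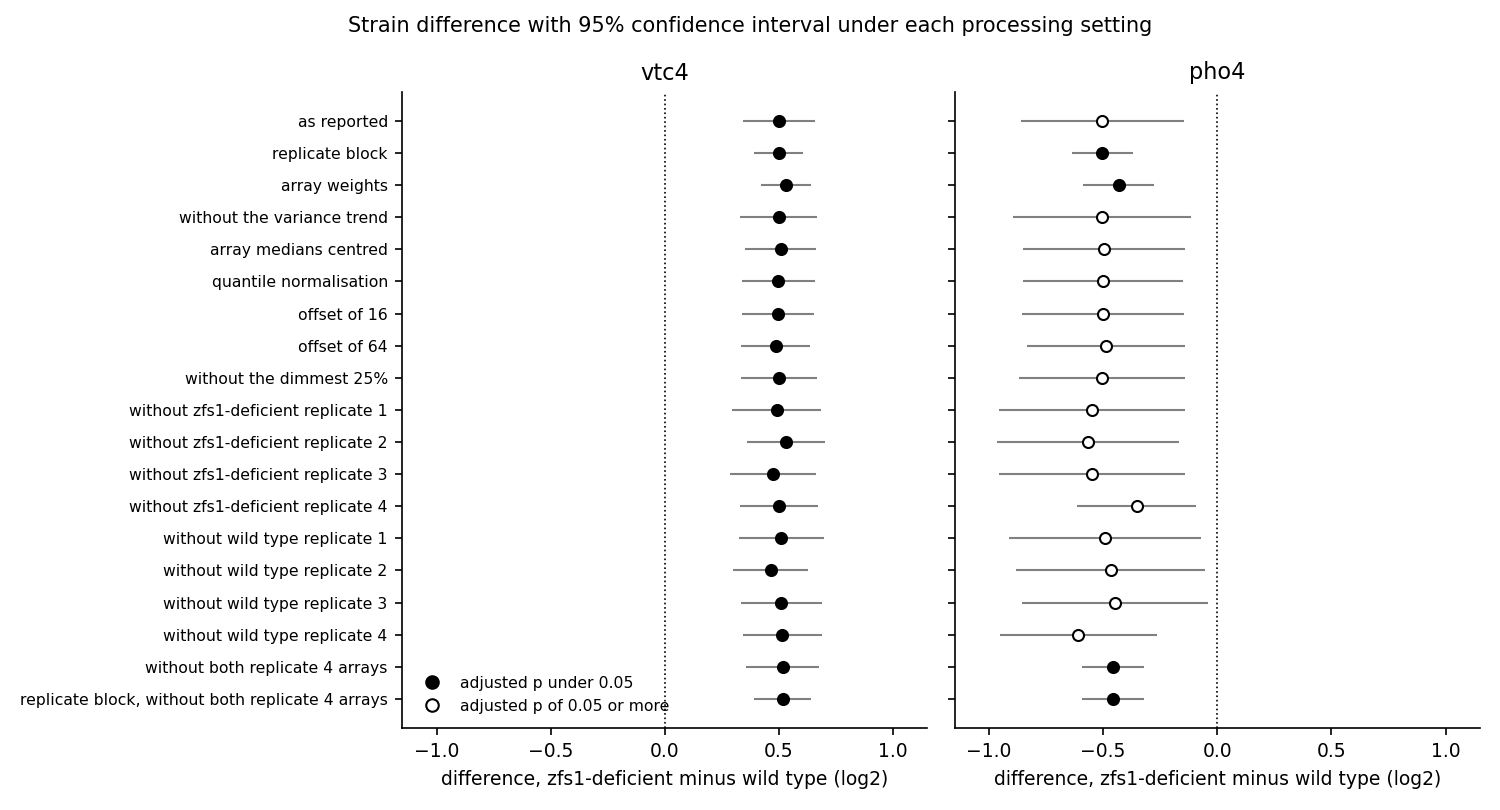
Difference of vtc4 and of pho4 between the strains (x axis, log2, zfs1-deficient minus wild type) with its 95% confidence interval under the reported fit and each alternative (rows). Filled points have an adjusted p under 0.05. All vtc4 points lie between 0.46 and 0.53 and are filled, and all pho4 points lie between -0.61 and -0.35, 4 of them filled.

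The gene nrf1 (SPBC21B10.04C) does not carry a listed symbol and was not a member, but its product is the fission yeast counterpart of the small VTC subunit Vtc1, so its values are given beside those of vtc4. It read 11.60, 11.73, 11.58 and 11.86 in zfs1-deficient cultures 1 to 4, against 11.42, 11.59, 11.49 and 11.82 in wild-type cultures 1 to 4. Within pairs 1 to 4 nrf1 was higher by 0.17, 0.13, 0.10 and 0.03, the direction of vtc4. All 4 pairs were higher for 20.8% of probe sets with a value on every array. The ranges overlapped, and the difference of 0.11 ± 0.10 (SE, n = 4 per strain) did not pass (limma, adjusted p = 0.584, and 0.0957 in the blocked fit). The 95% confidence interval of the difference, -0.11 to 0.33, ended below the 0.34 at which that of vtc4 began. Whether nrf1 and vtc4 differed in their change was not tested.

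Among the other genes of phosphate acquisition, 4 of 14 listed had a probe set, and 0 passed in either direction in limma, where 3.56% of all probe sets were called higher and 2.21% lower. The unadjusted p was under 0.05 for 2 lower and 0 higher genes, against 522 lower and 502 higher of all 4969. Their median difference was -0.02, against -0.01 over all tested probe sets. 1 of the 4, ppa2, encodes a catalytic subunit of protein phosphatase 2A and not a gene of phosphate supply. gde1, a glycerophosphodiesterase gene, differed by 0.10 ± 0.13 (SE; limma, adjusted p = 0.712). In the blocked fit pho2, the gene of a 4-nitrophenylphosphatase, was called lower at -0.15 ± 0.04 (SE; limma, adjusted p = 0.0244), 1 of 4 where 12.8% of all probe sets were lower, and 0 genes were called higher.

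The probe set with the smallest adjusted p in that list is named pho1 in the probe table, but its gene identifier now belongs to nc-pho1 (SPNCRNA.1712, also called prt). This long non-coding RNA starts next to pho84 and overlaps pho1, the acid phosphatase gene of phosphate starvation, so which of these transcripts the probes read was not settled. The signal was 9.58, 10.87, 9.63 and 9.04 in zfs1-deficient cultures 1 to 4, against 10.64, 10.53, 10.98 and 11.49 in wild-type cultures 1 to 4. It was lower without zfs1 in 3 of 4 pairs and higher in pair 2, and the groups overlapped through zfs1-deficient culture 2. The difference of -1.13 ± 0.36 (SE, n = 4 per strain) did not pass (limma, adjusted p = 0.108; 0.0520 in the blocked fit). It passed without zfs1-deficient replicate 2, at -1.49 (limma, adjusted p = 0.0192), and with array weights, at -1.09 (adjusted p = 0.00322). The weights were 6.55, 0.65, 5.50 and 0.18 for zfs1-deficient cultures 1 to 4, so culture 2 counted little in the weighted fit. Without both replicate 4 arrays the difference was -0.69 (limma, adjusted p = 0.192).

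A list of thiamine-regulated genes, the system to which the regulation of pho4 belongs, had differences below 0 in 7 of 7 tested cases. Over all probe sets this held for 2616 of 4969. The list holds genes of thiamine synthesis, uptake and their control, and also bsu1, a vitamin B6 transporter gene. Of 11 names listed, 8 probe sets were found and 7 could be tested. None passed without the block in limma (unadjusted p under 0.05 for 0 higher and 5 lower, against 502 and 522 of all 4969; adjusted p from 0.0678), and with it 5 were called lower and 0 higher, where 12.8% of all probe sets were called lower. Their median difference was -0.36, against -0.01 over all tested probe sets. Without both replicate 4 arrays 3 were called lower, thi1, thi4 and bsu1, where 5.58% of all probe sets were.

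bsu1 (SPAC17A2.01), a vitamin B6 transporter gene, showed the largest difference of the 7, with 8.52, 9.02, 8.51 and 8.01 in zfs1-deficient cultures 1 to 4, against 9.27, 9.20, 9.45 and 8.85 in wild-type cultures 1 to 4. The strains overlapped only between zfs1-deficient culture 2 and wild-type culture 4, and the difference was -0.68 ± 0.21 (SE, n = 4 per strain; limma, adjusted p = 0.102; 0.00885 with the block). thi4 (SPAC23H4.10C), of thiamine phosphate synthesis, read 10.23, 10.57, 10.32 and 9.62 in zfs1-deficient cultures 1 to 4, against 10.93, 10.91, 10.86 and 10.62 in wild-type cultures 1 to 4, with no overlap. It differed by -0.65 ± 0.18 (SE; limma, adjusted p = 0.0749; 0.00391 with the block). As for pho4, culture 4 was the lowest of both strains in bsu1, thi4 and tnr3. In thi1 and thi9 it was the lowest in the zfs1-deficient strain only. In thi5 it was the highest wild-type culture (9.34), and in thi2 the highest zfs1-deficient culture (9.40).

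The other thiamine genes differed by smaller amounts. thi1 (SPAC1486.10), the zinc-finger activator of these genes, had the smallest adjusted p of the list in the unblocked fit. It averaged 9.51 ± 0.10 in zfs1-deficient and 9.87 ± 0.11 in wild-type cultures (SD, n = 4 each) without overlap, a difference of -0.36 ± 0.10 (SE; limma, adjusted p = 0.0678; 0.0121 with the block). The thiamine transporter gene thi9 differed by -0.49 (adjusted p = 0.0361 with the block) and thi5, a further transcription factor gene, by -0.34 (0.0227 with the block). tnr3, the thiamine pyrophosphokinase gene, at -0.12, and thi2, of thiazole synthesis, at -0.04, did not pass in either fit (adjusted p with the block of 0.276 and 0.764). The probe set of nmt1 had a value on 3 zfs1-deficient arrays and 1 wild-type array, all at or below the brightest reporter control, and was not tested.

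**Figure D3:**
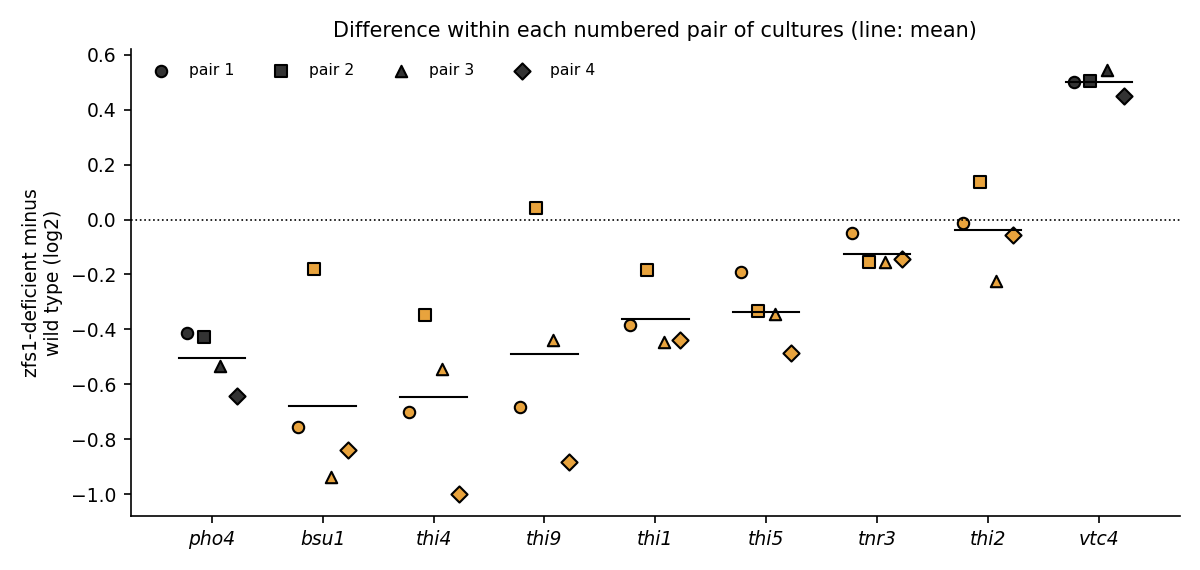
Difference between the strains within each numbered pair of cultures (y axis, log2, zfs1-deficient minus wild type) for pho4, the 7 tested thiamine genes (orange) and vtc4, with the mean as a line. pho4 is below 0 in all 4 pairs, 5 of the 7 thiamine genes are below 0 in all 4 pairs, and vtc4 is between 0.45 and 0.54 in all 4.

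Across the 8 arrays the signal of pho4 ran closest to those of hem4 and psd1 among 2880 other named probe sets. hem4 (SPAC31G5.08, uroporphyrinogen synthesis for heme) had a Pearson correlation of 0.997 with pho4, 0.992 with the strain means removed, and 0.991 over the 6 arrays without replicate 4. psd1 (SPBC16E9.18), a phosphatidylserine decarboxylase gene, had correlations of 0.992, 0.984 and 0.990 in the same order. These are descriptions over arrays that share the strain difference and the low culture 4, chosen as the highest of many. hem4 differed between the strains by -0.32 and psd1 by -0.39, neither passing without the block (limma, adjusted p = 0.179 and 0.180) and both with it (0.0181 and 0.00947). Of the thiamine genes, thi4 had the highest correlation with pho4 (0.963, and 0.915 with strain means removed). The lowest was that of thi2 (-0.19, and -0.49 with strain means removed). For thi5 it was 0.505, -0.39 with strain means removed, and 0.93 over the 6 arrays without replicate 4. The remaining tested thiamine genes had correlations above 0, also with strain means removed.

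The signal of vtc4 ran closest to those of mus81 and gpd1. mus81 (SPCC4G3.05C), a subunit of a DNA junction endonuclease, had a Pearson correlation of 0.984 over the 8 arrays and 0.683 with the strain means removed. gpd1 (SPBC215.05), a glycerol-3-phosphate dehydrogenase gene, had 0.982 and 0.744. The strain difference was 0.85 for mus81 and 0.46 for gpd1 (limma, adjusted p = 0.00296 and 0.00320). The correlation of vtc4 with pho4 was -0.75, and -0.18 with the strain means removed.

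The vacuolar proton ATPase, whose gradient the VTC complex uses, had smaller estimated differences than vtc4. Of 16 listed genes 14 were tested and 0 passed in limma in either direction, where 3.56% of all probe sets were called higher and 2.21% lower. In the blocked fit 0 passed as well, where 11.3% of all probe sets were higher and 12.8% lower. Over so few genes a count of 0 lies near the unblocked shares. The unadjusted p without the block was under 0.05 for 1 higher and 0 lower, against 502 and 522 of all 4969. Differences ran from -0.13 to 0.14, with a median of 0.03. vma3, a subunit of the membrane ring, had the smallest adjusted p, at 0.11 ± 0.05 (SE; limma, adjusted p = 0.236), and its alternatives with 1 array left out lay between 0.09 and 0.13. The 95% confidence intervals reached up to 0.49 for vma8 and 0.39 for vma4, past the 0.34 at which that of vtc4 began, and whether these genes and vtc4 differed in their change was not tested.

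Genes known to set the level of the phosphate genes did not pass without the block. Of 10 tested inositol phosphate and kinase regulators 0 passed in limma, where 3.56% of all probe sets were called higher and 2.21% lower. Over so few genes a count of 0 lies near these shares. The unadjusted p was under 0.05 for 0 higher and 1 lower, against 502 and 522 of all 4969. The median difference of the 10 was -0.08. asp1, the kinase and phosphatase of inositol pyrophosphates that signal phosphate status, differed by 0.21 ± 0.11 (SE, limma adjusted p = 0.320). The difference of csk1, a kinase gene of the same list, was -0.15 (limma adjusted p = 0.596). lsc1, a subunit of an RNA polymerase tail kinase, had the smallest adjusted p at -0.37 ± 0.14 (SE; limma, adjusted p = 0.177) and was called lower with the block (0.0248), where 1 of the 10 was lower and 0 higher, against 12.8% lower and 11.3% higher of all probe sets.

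Of 8 tested genes of 3′ processing and termination, which act on the non-coding transcripts upstream of the phosphate genes, 0 passed in limma. This again lies near the shares of all probe sets, 3.56% called higher and 2.21% lower. The unadjusted p was under 0.05 for 1 higher and 0 lower, against 502 and 522 of all 4969. The median difference of the 8 was 0.07. ctf1, of the cleavage and polyadenylation machinery, had the smallest adjusted p at 0.35 ± 0.13 (SE; limma, adjusted p = 0.182). In the blocked fit ctf1 was called higher (adjusted p = 0.0130) and rrp6, the nuclear exosome nuclease gene, lower at -0.31 (0.0422), against 11.3% of all probe sets higher and 12.8% lower. The genes mmi1 and red1, which direct RNA to the exosome, differed by -0.02 and 0.14 (adjusted p = 0.946 and 0.421).

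**Figure D4:**
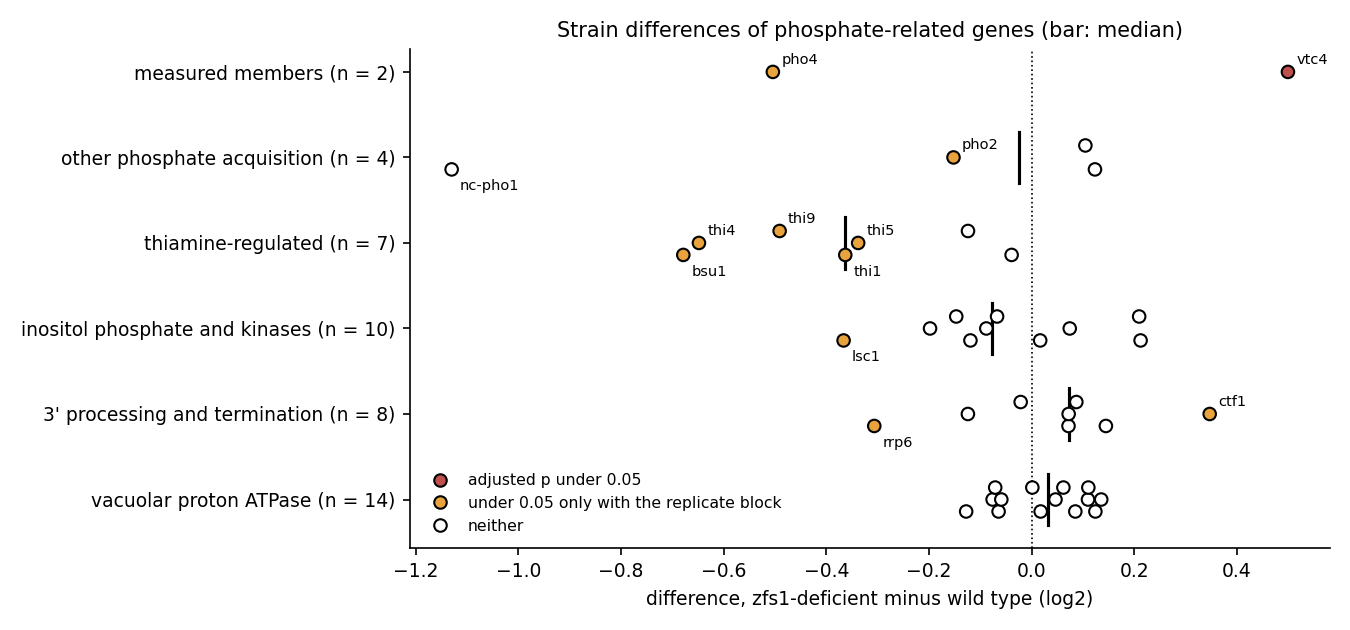
Strain difference (x axis, log2, zfs1-deficient minus wild type) of each tested gene in 6 groups (rows), with a black bar at the median of groups of more than 2. Red points have an adjusted p under 0.05, orange ones only in the blocked fit. vtc4 is the 1 red point, 5 of 7 thiamine genes are orange, and the 14 proton ATPase genes lie between -0.13 and 0.14.

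Other cell states were followed with marker lists, which were chosen with earlier results of these data known. The counts of called genes therefore describe these lists and test nothing. Of 22 core stress genes 10 were called higher, among them gpd1, and 0 lower (limma, adjusted p under 0.05). Over all probe sets the shares were 3.56% and 2.21%. Differences were above 0 for 17 of the 22 and below 0 for 5, the lowest being gst2 at -0.57 (limma, adjusted p = 0.563). The summed linear signal of the list was 42217 to 54982 in zfs1-deficient and 26908 to 33612 in wild-type cultures. Of 9 tested sporulation genes 3 were called higher, isp3, spo6 and mug2, and 0 lower. The number higher was 1 without zfs1-deficient replicate 1 or 3, and 0 of those left without the dimmest 25% of probe sets. Differences were above 0 for 5 of the 9 and below 0 for 4. The unadjusted p was under 0.05 for 3 higher and 2 lower genes. The 2 lower ones, spn5 at -0.98 and spo14 at -0.38, were lower in all 4 pairs. In the blocked fit spo14 was called lower (limma, adjusted p = 0.00434). The spn5 signal was above the brightest control on 3 of 8 arrays. The summed signal of the list was 3314 to 3569 in zfs1-deficient and 3135 to 3909 in wild-type cultures. isp3 was above the brightest control on 1 of 8 arrays, and spo4 and spn6 stayed at or below the brightest control on every array with a value. Of 4 P-cell genes 1 was higher, sxa1 at 0.31, or 0 without zfs1-deficient replicate 3, and the list's median was -0.07. map2 differed by -0.50 (adjusted p = 0.343; 0.0299 in the blocked fit), map3 by -0.12 and map1 by -0.02. The summed P-cell signal was 3900 to 4153 in zfs1-deficient and 3282 to 3603 in wild-type cultures. Most of that sum came from sxa1. Its zfs1-deficient mean was 11.88 in log2, against 7.01 for map2, 7.12 for map3 and 4.78 for map1. The map1 signal was above the brightest control on 3 of 8 arrays. Of 6 tested M-cell genes 0 passed and 0 had an unadjusted p under 0.05 (summed 1917 to 2662 in zfs1-deficient and 1843 to 2498 in wild-type cultures), and mfm1 was at or below the brightest control on every array with a value. The part of these states in the differences of vtc4 and pho4 was not tested.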

How the data were processed

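Per the labels' protocols, biotin-labelled cRNA was made from 1 µg of total RNA with a 3′ amplification kit, 5 µg of it was hybridised for 16 h, and signals came from the GeneChip Operating Software. The labels name a nematode array, whereas the probe table used here pairs the probe sets with fission yeast genes. The deposited values were read as log10 signal, a base inferred from array medians near 2.9, since scaling, summary method and base are not given in the sources used here. They were converted to log2 and otherwise used as deposited. With another base all log2 differences would scale by 1 factor, and unoffset p-values would not change. Of 5011 rows, 17 reporter controls measured background, and 4969 of 4994 yeast probe sets had at least 2 values per strain and were tested.

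Symbols came from the probe table (2916 probe sets with 1 symbol, 20 with several, 2058 with none) and were updated by gene identifier through the RefSeq gene table of ASM294v3 (2913 found). A gene with several probe sets was represented by that with the highest mean. No coordinates are printed, because no source used here gives the build behind the probes.

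The strain comparison used limma 3.58.1 under R 4.3.3, with lmFit and trended eBayes, 2-sided, adjusted by Benjamini-Hochberg over all tested probe sets; the fit was checked on simulated data. Labels call the samples replicate cultures, so the spread is that between cultures. Over probe sets, the deviation from the strain mean correlated between both arrays of a number at 0.37, 0.33, 0.26 and 0.70 for numbers 1 to 4, all above the 0.1 set as the rule; zfs1-deficient 3 with wild-type 1 also reached 0.41. Alternatives were the block, array weights, no trend, median centring, quantile normalisation, offsets of 16 and 64, leaving out the dimmest 25% of probe sets, each array in turn and both replicate 4 arrays. The members, lists and tests were chosen with earlier results of these data known. Named were all members, zfs1, up to 4 called genes of each list or that with the smallest adjusted p, and the 2 genes most like each member. nrf1, mentions of further list genes and those called with the block were chosen after values were seen. The planned search of promoters for a Pho7 motif was not analysed here. Figures were drawn with matplotlib 3.10.9.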

Additional observations from a re-analysis of the deposited data

Results flagged for a closer look

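In a group of 4 cultures, a value was looked at again where its gap to the nearest other culture exceeded Dixon's 95% critical value as a share of the group's range. The 18 groups examined were those of vtc4, pho4, ctf1, lsc1, nc-pho1, thi1, vma3, nrf1 and zfs1. Other genes named in the text were not examined in this way. Of the 18 groups 2 exceeded the critical value, and chance gives about 1 in 20. The vtc4 signal of wild-type culture 2, 10.7634, lay 0.907 of the range below the other 3 wild-type cultures. Without it the vtc4 difference was 0.46 and passed (limma, adjusted p = 0.0165). The pho4 signal of zfs1-deficient culture 4, 10.2219, lay 0.910 of the range below the other 3 zfs1-deficient cultures, and without it the unblocked difference was -0.35 and did not pass, as with all arrays (limma, adjusted p = 0.106).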

How the results depend on the processing

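The rise of vtc4 kept its direction and passed under all 18 alternative fits. An exact permutation test of the arrays gave its smallest 2-sided p, 0.0286, for vtc4 and for pho4, not adjusted over genes. Groups that do not overlap fix that p, so it adds nothing to the separation itself. Among probe sets with a value on every array, 7.81% were separated upward and 7.71% downward. The pho4 difference kept its direction throughout. It passed in limma with the replicate block (-0.50, adjusted p = 0.00117), with array weights (-0.43, adjusted p = 0.00144) and without both replicate 4 arrays (-0.46, adjusted p = 0.00385). It also passed when that last fit had the block, added after the data were seen (-0.46, adjusted p = 0.00577). With 1 array left out it ran from -0.61 to -0.35. The members called lower thus numbered 1 in these 4 fits, against 0. The array weights were uneven, from 0.18 for zfs1-deficient culture 4 to 6.55 for zfs1-deficient culture 1, so the weighted fit leaned on few cultures.

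The difference between vtc4 and pho4 was 0.97 without both replicate 4 arrays, where 3 against 3 cannot go below an exact p of 0.1; as with all arrays, that p was fixed by groups that do not overlap. Over all probe sets, 563 were higher and 638 lower with the block, 761 and 756 with array weights, 332 and 277 without both replicate 4 arrays, 429 and 459 when that fit had the block, and 75 to 184 and 28 to 125 with 1 array left out. Of the genes of the 5 phosphate-related lists, 0 higher and 0 lower became 1 and 8 with the block, 3 and 10 with array weights, 1 and 4 without both replicate 4 arrays, 2 and 5 when that fit had the block, and 0 and 0 to 3 with 1 array left out. Without zfs1-deficient replicate 2, 2 thiamine genes were lower, and 1 without zfs1-deficient replicate 4. The median signal of the reporter controls differed by 0.36 between the strains, and vtc4 and pho4 lay above the brightest control on all 8 arrays. The cause of these changes was not tested.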
